A study of Mus musculus with 4 samples.

Results

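The miRNAs mmu-miR-99a-5p, mmu-miR-100-5p and mmu-miR-125b-5p were followed in extracellular vesicles (EVs) secreted by primary mouse hepatocytes. They are 3 of the 1881 miRNAs on the Agilent array and were chosen by name, as the relatives of miR-99b and miR-125a whose genes lie beside other let-7 genes. Of all miRNAs on the array, 443 were above background on all 4 arrays and 542 on at least 1, and the 3 miRNAs were among the 443. HFD-LKO EV and Chow-LKO EV came from Ggpps LKO mice fed a high-fat diet (HFD) or chow. HFD-EV and Chow-EV came from wild-type (WT) mice fed the same diets. Ggpps encodes geranylgeranyl diphosphate synthase, an enzyme of isoprenoid synthesis. All mice were male, of the strain labelled B6 and 20 weeks old, after 12 weeks on the diet. The knockout joined Ggpps-floxed alleles with Mx1-Cre, an interferon-responsive driver induced by injection of polyinosinic-polycytidylic acid before the diet began. The Methods describe recombination as limited to the liver, although the promoter of the driver is not itself specific to hepatocytes. They do not say whether WT mice were injected. Hepatocytes were cultured for 48 h in medium with EV-depleted serum, and the EVs of 4 animals were pooled for each array.

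Each group was therefore 1 array, no group had replicates, and no test between groups could be made. Values are spot signals divided by the array's 75th percentile (scaled signals), and ratios are log2 ratios of these. The value after ± is the SD between replicate spots of a probe, carried through the sum over probes and the ratio. It reflects technical noise of the spots alone and leaves out the variation of mice, cultures and EV preparations. A difference of more than 2 spot SDs is called larger than the spot spread, which is a description and not a test. The shares of all miRNAs past 2 spot SDs, or with spot ranges that do not overlap, were not counted. Neither is therefore shown to be particular to the members. All arrays were on 1 slide, between 482 and 508 miRNAs were above background on each, and no spot was saturated. The arrays carry no probe for Ggpps, so the knockout could not be checked. The hepatocyte label was checked with the liver miRNAs: all 6 of the listed hepatocyte miRNAs on the array were above background in every group, led by miR-122-5p.

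miR-99a and miR-100 belong to 1 seed family, known for repressing mTOR and other components of insulin and growth factor signalling. miR-125b belongs to the family of the nematode lin-4, the first miRNA described, and in mammals it represses Lin28 and regulators of apoptosis. A miRNA recognises its targets mainly through its seed, so miRNAs with the same seed share many predicted targets. In animals from flies to mice the miR-100, let-7 and miR-125 genes lie next to each other, and LIN28 blocks the maturation of let-7 but not of its neighbours.

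The mature sequences show which members share a seed and how closely they resemble each other. They are the RefSeq sequences on GRCm38.p6, given 5′ to 3′ with the seed, bases 2 to 8, in capitals.
miR-99a-5p: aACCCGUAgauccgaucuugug
miR-100-5p: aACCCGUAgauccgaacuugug
miR-99b-5p: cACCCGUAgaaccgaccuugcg
miR-125b-5p: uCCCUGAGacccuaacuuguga
miR-125a-5p: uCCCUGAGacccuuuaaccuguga

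miR-99a-5p and miR-100-5p were identical at 21 of 22 bases and differed by U16A, with the base of miR-99a first and positions counted from the 5′ end. Both differed from miR-99b-5p at 4 bases, outside the seed. miR-125b-5p and miR-125a-5p shared their first 13 bases. The authors' table pairs 1 probe sequence with each member, without saying which of its 2 probes it is, and those of miR-99a and miR-100 also differed at 1 base, which is the reason to show them. The probe sequences are given 5′ to 3′ as DNA, with the base that differs in capitals and no such base in the probe of miR-125b.
probe of miR-99a-5p: cacaagAtcggatctacgg
probe of miR-100-5p: cacaagTtcggatctacgg
probe of miR-125b-5p: tcacaagttagggtctc

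These probe sequences of miR-99a and miR-100 pair with bases 4 to 22 of their miRNA and differed by A7T, with the base of the miR-99a probe first and positions counted from the probe's 5′ end. How much miR-99a binds to the miR-100 probe, or the reverse, was not tested.

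The genes lie in 2 clusters of the same order. On chromosome 16, Mir99a (GRCm38.p6, chr16:77598936-77599000) is followed by Mirlet7c-1 after 0.721 kb and by Mir125b-2 (chr16:77646273-77646343) after 47.3 kb, counted between starts. On chromosome 9, Mir100 (chr9:41531425-41531504) is followed by Mirlet7a-2 after 5.29 kb and by Mir125b-1 (chr9:41581926-41582002) after 50.5 kb, and all 3 lie inside the long noncoding RNA gene Mir100hg. The related cluster of Mir99b, Mirlet7e and Mir125a lies on chromosome 17, inside Spaca6. miR-125b-5p is identical from both of its genes, so its signal cannot be divided between chromosomes 9 and 16. The opposite arms would tell the genes apart, but miR-125b-1-3p and miR-125b-2-3p had no probe above background on any of the 4 arrays, and neither did miR-99a-3p or miR-100-3p.

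EVs of LKO hepatocytes gave lower signals of all 3 miRNAs than EVs of WT hepatocytes, on either diet. So did 263 of the 474 miRNAs above background on both arrays under HFD and 285 of 463 on chow. miR-99a and miR-100 were 1.81-fold to 1.95-fold lower and miR-125b was 1.46-fold lower under HFD and 1.57-fold lower on chow. The chow values depended on the scaling: the log2 ratio of miR-125b on chow, -0.65 here, was -0.38 without scaling and -0.01 with arrays scaled to labelling spike-ins. The size for miR-100 depended on the processing under HFD too. Its log2 ratio there, -0.94 here, was -0.22 with Feature Extraction's total gene signal and -0.29 in the authors' log2 values. With the main processing the diet itself left miR-99a and miR-100 within the spot spread, while miR-125b was lower on the high-fat diet in WT mice. In LKO mice the spike-in scaling put the diet ratios of miR-99a and miR-100 at -0.60 and -0.68. The total gene signal put that of miR-100 at 0.83 in LKO and 0.62 in WT mice.

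miR-99a-5p had scaled signals of 0.385 ± 0.0155 in HFD-LKO EV, 0.379 ± 0.0181 in Chow-LKO EV, 0.728 ± 0.0275 in HFD-EV and 0.738 ± 0.0208 in Chow-EV (SD between spots). The LKO arrays differed from each other by less than the spot spread, as did the WT arrays, and both LKO values lay below both WT values. Before scaling, the same signals were 203.0 and 232.5 in HFD-LKO EV and Chow-LKO EV, against 408.5 and 375.0 in HFD-EV and Chow-EV. On the brighter probe the spots of HFD-LKO EV ran between 0.273 and 0.319 and those of HFD-EV between 0.504 and 0.574. Those of Chow-LKO EV ran between 0.278 and 0.339 and those of Chow-EV between 0.528 and 0.592. The ranges did not overlap between genotypes on either diet, and the same held for the dimmer probe. How common such ranges were among all probes was not counted, here or for the other members.

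miR-100-5p had scaled signals of 0.0697 ± 0.00837 in HFD-LKO EV, 0.0726 ± 0.00923 in Chow-LKO EV, 0.134 ± 0.0110 in HFD-EV and 0.132 ± 0.00908 in Chow-EV. The order of the groups had the same 2 steps as for miR-99a, with no difference beyond the spread between the LKO arrays or between the WT arrays. Its value rests on 1 probe, since the dimmer one had at most 1 of 15 spots above background on any array, with mean signals of 3.67 in HFD-LKO EV, 4.54 in Chow-LKO EV, 5.59 in HFD-EV and 5.86 in Chow-EV. On the brighter probe all 15 spots were above background on every array, and the ranges of LKO and WT spots did not overlap on either diet.

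miR-125b-5p had scaled signals of 0.856 ± 0.0399 in HFD-LKO EV, 0.995 ± 0.0597 in Chow-LKO EV, 1.25 ± 0.0471 in HFD-EV and 1.57 ± 0.0607 in Chow-EV. With the main processing the 4 groups formed a graded series here, lowest in HFD-LKO EV and highest in Chow-EV. In it HFD-LKO EV and Chow-LKO EV lay within 2 spot SDs of each other. With the spike-in scaling Chow-LKO EV was level with Chow-EV, at a log2 ratio of -0.01, and HFD-EV lay at -0.36 from Chow-EV. On the dimmer probe the diet ratios were -0.01 ± 0.22 in LKO and -0.12 ± 0.16 in WT mice, within the spot spread. Spots of the brighter probe ran between 0.653 and 0.787 in HFD-LKO EV and between 0.967 and 1.14 in HFD-EV. In Chow-LKO EV they ran between 0.747 and 0.949 and in Chow-EV between 1.26 and 1.46. The LKO and WT ranges did not overlap on either diet.

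**Figure D1:**
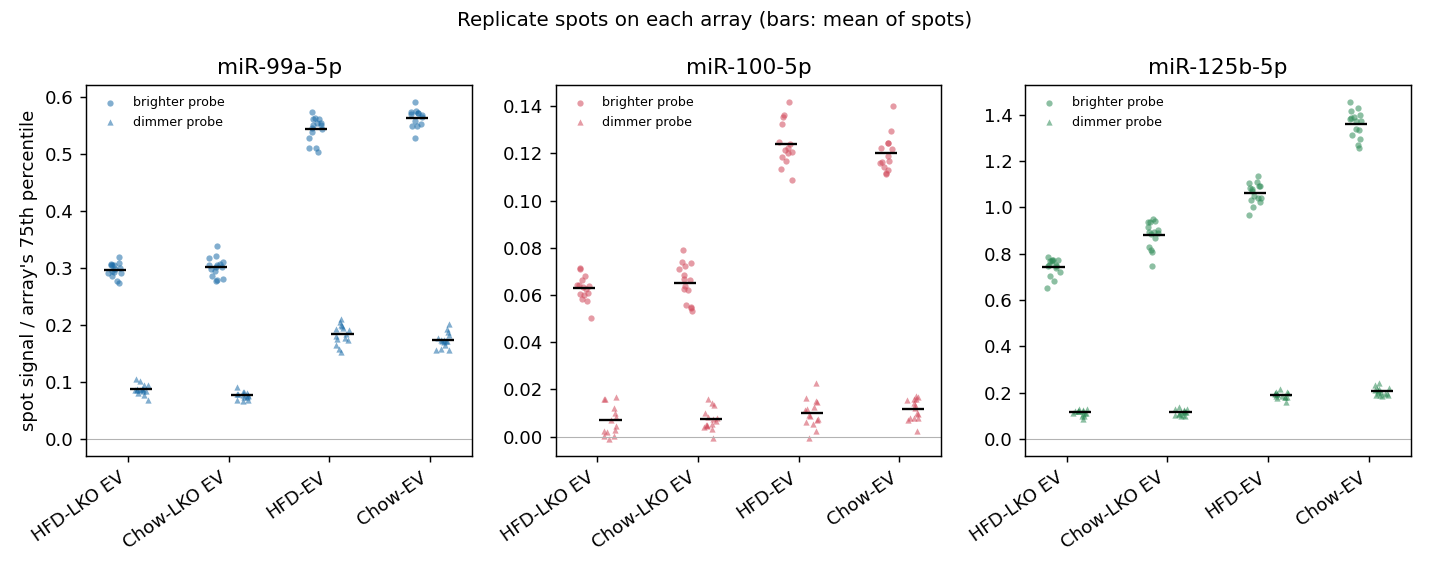
Scaled spot signals (spot signal over the array's 75th percentile, linear axes of different range) of the 2 probes of each miRNA in the 4 groups; each point is 1 spot that was not marked as an outlier and each bar is the mean of a probe's spots. Spots of the brighter probe of miR-99a lie between 0.273 and 0.339 in both LKO arrays and between 0.504 and 0.592 in both WT arrays, and the dimmer probe of miR-100 lies close to 0.

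The comparison of genotypes under HFD asked what the loss of Ggpps did to the miRNA content of EVs in lipid overload. In HFD-LKO EV over HFD-EV the log2 ratio was -0.92 ± 0.08 for miR-99a-5p, -0.94 ± 0.21 for miR-100-5p and -0.55 ± 0.09 for miR-125b-5p. Each ratio was larger than the spot spread and none reached 2-fold, past which 39 of 521 miRNAs were lower (7.49%) and 41 were higher (7.87%), or 47 and 35 without scaling. A ratio nearer to the median, that of let-7c-5p at -0.18 ± 0.07, was past 2 spot SDs too. miR-99a and miR-100 were at least 1.5-fold lower, as were 20.2% of all 521, and miR-125b was not. Of the 474 miRNAs above background on both arrays, 7.59% had a lower ratio than miR-99a, 7.17% a lower one than miR-100 and 21.3% a lower one than miR-125b. Relative to the median of -0.06, the members lay at -0.86, -0.88 and -0.48.

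On chow the comparison of genotypes used the other pair of arrays. In Chow-LKO EV over Chow-EV the log2 ratio was -0.96 ± 0.08 for miR-99a-5p, -0.86 ± 0.21 for miR-100-5p and -0.65 ± 0.10 for miR-125b-5p. All 3 ratios were larger than the spot spread and none reached 2-fold, the fold past which 28 of the 514 miRNAs with a ratio or a bound were lower (5.45%) and 15 were higher (2.92%). Without scaling between arrays this balance turned, to 8 lower and 37 higher. All 3 were at least 1.5-fold lower, as were 16.9% of the 514 miRNAs. The smaller ratio of let-7c-5p, -0.21 ± 0.08, was also past 2 spot SDs. Among the 463 miRNAs above background on both arrays, 4.97% had a lower ratio than miR-99a, 6.26% a lower one than miR-100 and 11.4% a lower one than miR-125b. The median ratio of those miRNAs was -0.13, so the members lay at -0.83, -0.72 and -0.52 relative to it.

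The genotype ratio under HFD minus that on chow was 0.04 ± 0.11 for miR-99a, -0.08 ± 0.30 for miR-100 and 0.11 ± 0.13 for miR-125b. These differences were smaller than their spot spread, which with 1 array in each group does not show that the genotype ratios were equal. Among the members, miR-99a was further below WT than miR-125b, by a log2 difference of -0.37 ± 0.12 under HFD and -0.31 ± 0.13 on chow. miR-100 differed from miR-125b by -0.39 ± 0.23 under HFD and -0.20 ± 0.23 on chow, within 2 spot SDs. miR-99a and miR-100 were 0.02 ± 0.22 apart under HFD and -0.11 ± 0.22 apart on chow, within the spot spread.

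Scaling moves all ratios of a comparison together, and this touches the comparisons with Chow-LKO EV most. The labelling spike-ins, control RNAs added before labelling, were dimmer in Chow-LKO EV than on the other arrays (dmr_285 had a median signal of 1962 in HFD-LKO EV, 1507 in Chow-LKO EV, 2219 in HFD-EV and 2007 in Chow-EV). With arrays scaled to the spike-ins, an alternative chosen after seeing the data, the chow ratios were -0.32 for miR-99a, -0.21 for miR-100 and -0.01 for miR-125b, while the median of all miRNAs was 0.51. Under HFD the same scaling gave -0.86, -0.88 and -0.48, and the genotype ratio under HFD minus that on chow became -0.54, -0.67 and -0.48. The positions of the members relative to the median of all miRNAs, given above, are the same under any single scaling factor.

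**Figure D2:**
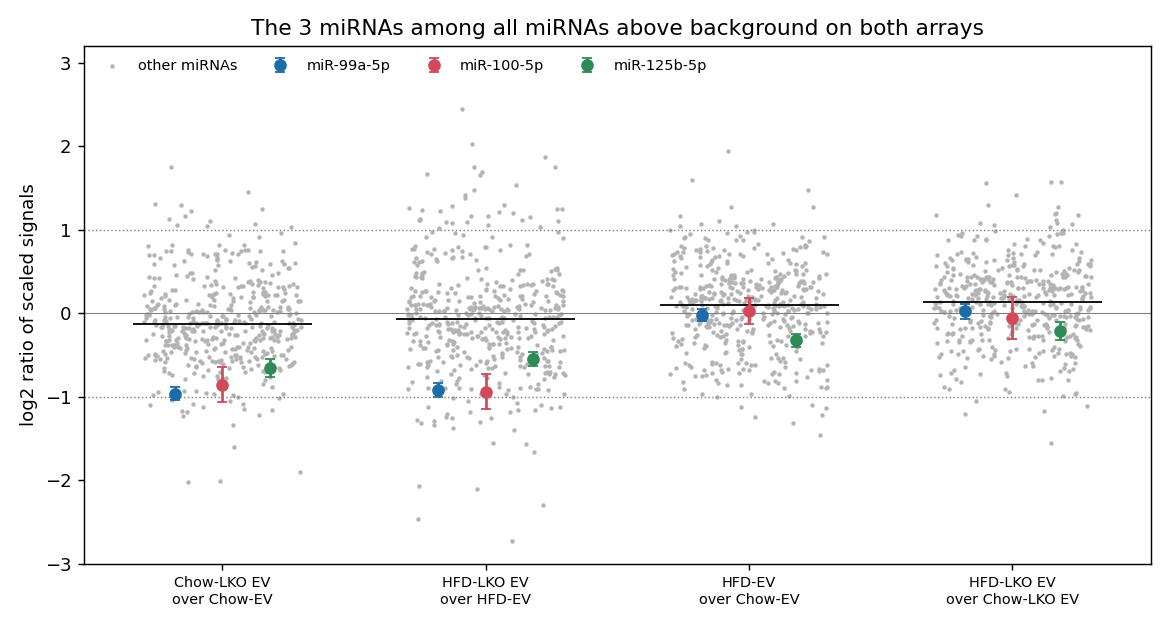
Log2 ratios of scaled signals in the 4 comparisons, with 1 grey point for each other miRNA above background on both arrays, black bars at the median of all of them, coloured points for the members with the SD between spots, and dotted lines at 2-fold. The members lie between -0.96 and -0.55 in the comparisons of genotypes and between -0.32 and 0.03 in the comparisons of diets.

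The comparison of diets asked what lipid overload did to the same miRNAs. In LKO mice, HFD-LKO EV over Chow-LKO EV gave log2 ratios of 0.02 ± 0.09 for miR-99a-5p, -0.06 ± 0.25 for miR-100-5p and -0.22 ± 0.11 for miR-125b-5p. None of these was larger than 2 spot SDs, although miR-125b was close to that limit. No member reached 2-fold, past which 22 of 522 miRNAs were higher (4.21%) and 8 were lower (1.53%). Without scaling this balance turned too, to 10 higher and 23 lower. The median over 466 miRNAs was 0.14, and 39.5% of them had a lower ratio than miR-99a, 32.2% a lower one than miR-100 and 21.7% a lower one than miR-125b. With the spike-in scaling all 3 ratios were below 0, at -0.60, -0.68 and -0.84, beside a median of all miRNAs of -0.49. The diet comparisons share no array with each other.

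In WT mice, the log2 ratio of HFD-EV over Chow-EV was -0.02 ± 0.07 for miR-99a-5p and 0.03 ± 0.16 for miR-100-5p, both within the spot spread, and -0.32 ± 0.08 for miR-125b-5p, which was 1.25-fold lower in HFD-EV. No member reached 2-fold, past which 14 of 511 miRNAs were higher (2.74%) and 9 were lower (1.76%), or 32 and 5 without scaling. The median over 477 miRNAs was 0.10, and 38.2% of them had a lower ratio than miR-99a, 42.3% a lower one than miR-100 and 21.2% a lower one than miR-125b. With Feature Extraction's own total gene signal miR-100 stood at 0.62 here and at 0.83 in LKO mice, and the cause was not tested. Each of the arrays also enters a comparison of genotypes.

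The probes of a member gave the same direction between genotypes, with sizes that differed. For miR-99a the brighter probe gave -0.87 ± 0.08 under HFD and -0.90 ± 0.09 on chow, and the dimmer probe -1.08 ± 0.20 and -1.19 ± 0.17. For miR-125b the brighter probe gave -0.52 ± 0.10 and -0.63 ± 0.11 in the same order, and the dimmer probe -0.74 ± 0.19 and -0.84 ± 0.20. For miR-100 the only probe above background gave -0.98 ± 0.17 and -0.88 ± 0.20. The lower value of miR-125b on the high-fat diet in WT mice came mainly from its brighter probe, at -0.36 ± 0.09, while the dimmer one gave -0.12 ± 0.16. The spots of the brighter probe did not overlap between HFD-EV and Chow-EV, and those of the dimmer probe did.

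Of the let-7 miRNAs encoded beside the members, let-7c lay apart from its neighbour between genotypes and let-7a did not. let-7c-5p, which shares a cluster with miR-99a and like other let-7 miRNAs represses growth-promoting genes, had genotype ratios of -0.18 ± 0.07 under HFD and -0.21 ± 0.08 on chow. miR-99a lay below let-7c by -0.75 ± 0.11 in both comparisons, a difference larger than the spot spread. let-7a-5p, which shares a cluster with miR-100, had genotype ratios of -0.91 ± 0.03 under HFD and -0.79 ± 0.04 on chow, and miR-100 differed from it by -0.04 ± 0.21 and -0.07 ± 0.21, within the spot spread. Mature let-7a and let-7c are also made from other genes, and let-7 miRNAs are close enough in sequence for probes to bind relatives, so neither signal is that of 1 gene.

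Between diets the neighbours and the members parted. let-7c was higher on the high-fat diet, with log2 ratios of 0.27 ± 0.08 in LKO and 0.23 ± 0.07 in WT mice, and let-7a had 0.44 ± 0.04 in LKO and 0.56 ± 0.03 in WT mice. miR-99a differed from let-7c by -0.24 ± 0.12 in LKO and -0.25 ± 0.10 in WT mice. miR-100 differed from let-7a by -0.50 ± 0.26 in LKO mice, within 2 spot SDs, and by -0.54 ± 0.16 in WT mice, larger than the spot spread.

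The paralogs on chromosome 17 were lower in LKO too. miR-99b-5p, with the seed of miR-99a and miR-100, had a genotype ratio of -1.37 ± 0.27 on the high-fat diet, with signals of 25.0 in HFD-LKO EV and 68.9 in HFD-EV. On chow it was below background in Chow-LKO EV with a signal lower than that of Chow-EV by at least 2.15-fold. miR-125a-5p, with the seed of miR-125b, had a ratio of -1.57 ± 0.18 on the high-fat diet. On chow it was below background in Chow-LKO EV and 4.67-fold lower than in Chow-EV by its own signal, which is not a strict limit. let-7e-5p, from the gene between them, had genotype ratios of -2.11 ± 0.16 under HFD and -2.01 ± 0.23 on chow. In HFD-LKO EV over HFD-EV the ratio of miR-125b was 1.02 ± 0.20 above that of miR-125a, while miR-99a and miR-100 differed from miR-99b by 0.45 ± 0.28 and 0.43 ± 0.34, within 2 spot SDs.

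Between diets the paralogs differed from the members. In HFD-EV over Chow-EV, miR-99b-5p had a log2 ratio of 1.04 ± 0.25, let-7e-5p of 1.27 ± 0.12 and miR-125a-5p of 0.51 ± 0.15, all higher on the high-fat diet. miR-99a lay -1.06 ± 0.26 and miR-100 -1.02 ± 0.29 from miR-99b, and miR-125b lay -0.83 ± 0.17 from miR-125a, each larger than the spot spread. In HFD-LKO EV, miR-99b-5p was at least 1.71-fold higher than in Chow-LKO EV, and miR-125a-5p was 2.24-fold higher by its own signal. Both were below background in Chow-LKO EV. The opposite arms gave other values than their partners. Their genotype ratios were -0.62 ± 0.20 under HFD and -0.61 ± 0.16 on chow for miR-99b-3p, and -0.47 ± 0.05 and -0.32 ± 0.05 for miR-125a-3p. miR-99b-3p was at -0.49 ± 0.15 and miR-125a-3p at 0.05 ± 0.05 in HFD-EV over Chow-EV.

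**Figure D3:**
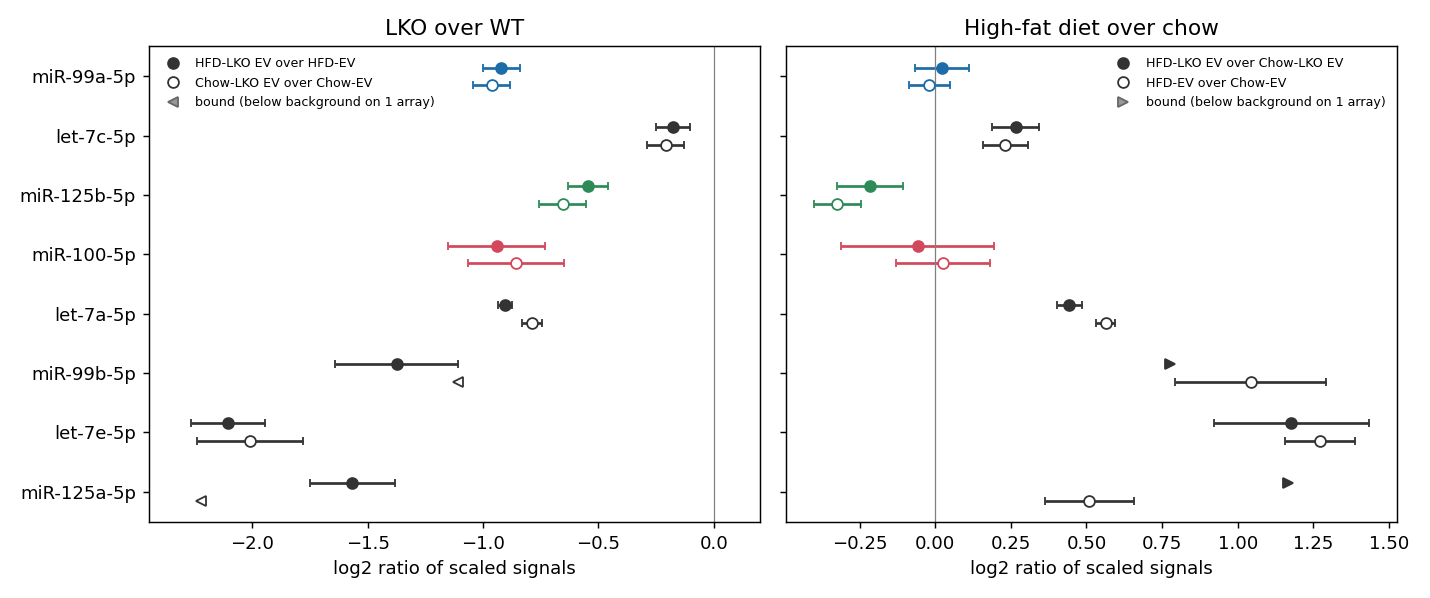
Log2 ratios of the members (coloured), the let-7 miRNAs of their clusters and the paralogs on chromosome 17 (dark grey) between genotypes (left) and diets (right), as ratios with the SD between spots or, where 1 array was below background, as bounds that point away from 0. The bounds of miR-125a-5p use its own signal in Chow-LKO EV and are not strict limits. Between diets the members lie between -0.32 and 0.03, and the ratios of the paralogs lie between 0.51 and 1.27.

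Of the other miRNAs on the array with a member's seed, miR-351-5p and miR-6367 had no probe above background on any array. miR-6394, which shares the seed of miR-125b, went the other way between genotypes, with log2 ratios of 0.79 ± 0.16 under HFD and 0.74 ± 0.16 on chow. The measured miRNAs with the seed of miR-125b thus lay on both sides of 0 between genotypes.

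The likeness of patterns was measured as the distance between the 4 log2 scaled signals after each miRNA was centred on its own mean, using the 443 miRNAs measured in every group. miR-100 was 0.08 from miR-99a and ranked 2 among the 442 others in its likeness to it, and miR-99a ranked 2 in its likeness to miR-100. Their probe sequences differed at 1 base, and the part of binding between relatives in this likeness was not tested. miR-125b was 0.44 from miR-99a and ranked 21 for it. The non-member most like miR-99a was miR-7238-5p at 0.06, followed by miR-3095-3p at 0.17, miR-6916-5p at 0.20, miR-6991-5p at 0.21 and miR-5126 at 0.23. miR-7238-5p and miR-3095-3p were also the nearest to miR-100, at 0.07 and 0.11, followed by miR-6516-5p, miR-7012-5p and miR-6991-5p. Nearest to miR-125b were miR-6990-5p and miR-1945 at 0.13 each, miR-30e-3p at 0.13, miR-3620-5p at 0.14 and miR-5128 at 0.16. With 4 arrays such distances are a description of these libraries only.

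Markers of other cell types were measured beside the members, since a preparation of hepatocytes can hold other liver cells. In EV RNA from a pool, a smaller share of EVs from a cell type and less of a miRNA in each EV cannot be told apart. The summed signal of a list takes in all its miRNAs on the array, also those not above background. The endothelial list, miR-126a-3p and miR-126a-5p, was above background in all groups, with summed scaled signals of 2.06 in HFD-LKO EV, 1.98 in Chow-LKO EV, 2.79 in HFD-EV and 2.51 in Chow-EV. miR-126a-3p had genotype ratios of -0.44 under HFD and -0.36 on chow. miR-126a-5p had -0.25 ± 0.23 and -0.03 ± 0.19, both within 2 spot SDs. The mesenchymal list had 1 of 7 miRNAs above background, miR-199a-3p, with miR-214-3p, miR-143-3p and miR-145a-5p not above it, and its sum was 0.1004 in HFD-LKO EV, 0.137 in Chow-LKO EV, 0.0780 in HFD-EV and 0.0847 in Chow-EV.

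The immune list, with 3 of 6 above background, summed to 1.29 in HFD-LKO EV, 1.02 in Chow-LKO EV, 0.967 in HFD-EV and 0.751 in Chow-EV. Its measured miRNAs went different ways between genotypes, with miR-223-3p at 0.73 under HFD and 0.75 on chow, miR-155-5p at 0.54 and 0.30, and miR-142a-3p at -0.59 and -0.69. The erythroid list, with miR-451a above background and miR-144-3p not, summed to 0.166, 0.0938, 0.0742 and 0.0575 in the same groups. None of the 5 bile duct and epithelial miRNAs of the miR-200 family was above background. The hepatocyte list summed to 183.5 in HFD-LKO EV, 166.7 in Chow-LKO EV, 186.0 in HFD-EV and 186.2 in Chow-EV, and most of each sum was miR-122-5p. Its median genotype ratio was -0.19 under HFD and -0.25 on chow. The miRNAs of the list went different ways, between -0.64 and 0.68 under HFD and between -0.68 and 0.74 on chow. The part of these shifts in the ratios of the members was not tested.

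Across the 11 alternative ways of processing, every one of the 6 genotype ratios of the members stayed below 0, although some came close to it. For miR-99a they ran between -1.01 and -0.67 under HFD and between -1.09 and -0.32 on chow. For miR-100 the ranges were -1.03 to -0.22 under HFD and -0.95 to -0.21 on chow, and for miR-125b -0.64 to -0.45 under HFD and -0.78 to -0.01 on chow. In the log2 values normalised by the authors, miR-99a was at -0.74 under HFD and -0.76 on chow, miR-100 at -0.29 and -0.34, and miR-125b at -0.48 and -0.50. The lower value of miR-125b in HFD-EV than in Chow-EV kept its sign under all 11, between -0.42 and -0.18.

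**Figure D4:**
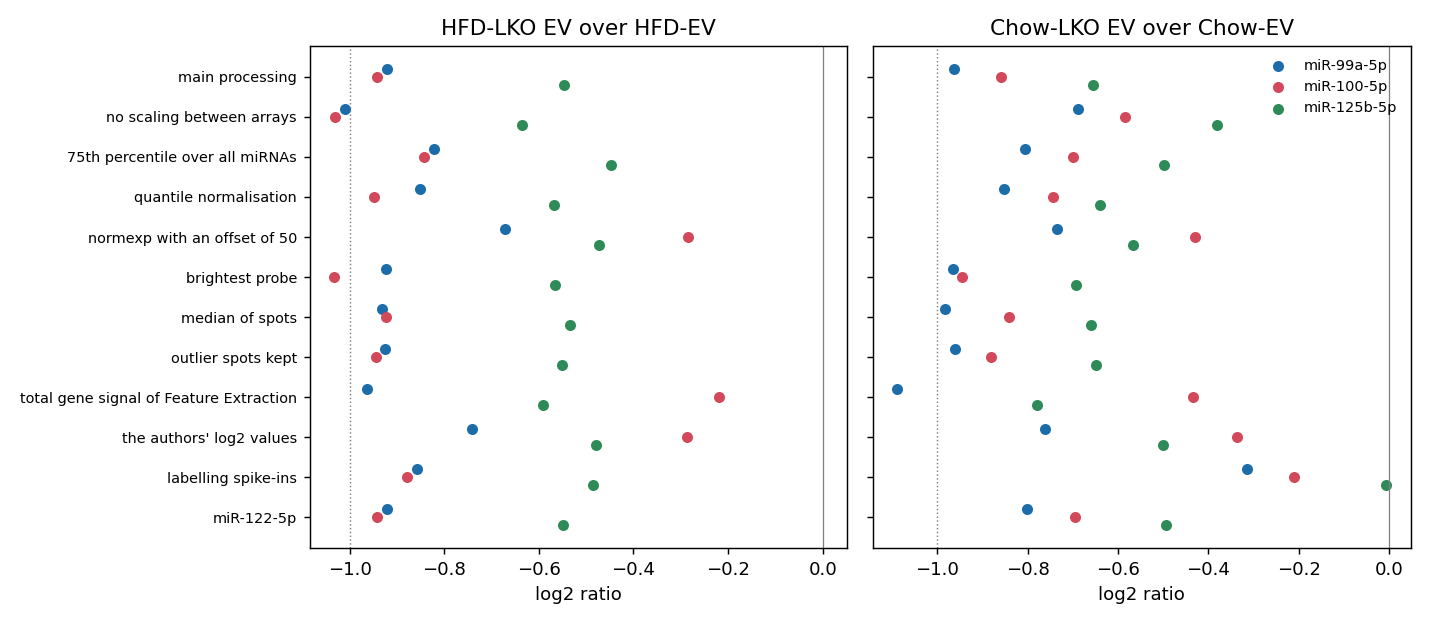
Log2 ratios of the members between genotypes on the high-fat diet (left) and on chow (right) under the main processing and 11 alternatives, with a dotted line at 2-fold lower. All points lie below 0, and the highest is miR-125b on chow at -0.01 with the labelling spike-ins.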

How the data were processed

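EVs of the 4 groups were profiled on 1 1-colour (Cy3) Agilent mouse miRNA array each. Spot intensity values were deposited as Agilent Feature Extraction 10.7.1.1 wrote them, with background subtracted and no normalisation between arrays. The authors' tables hold log2 values, deposited as normalised signals with nearly equal medians of 4.86 in HFD-LKO EV and 4.87 in the other groups. The Methods name normalisation to U6 and GenePix Pro, but the arrays carry no U6 probe and their files come from Feature Extraction, so how these log2 values were normalised was not settled. Columns of the authors' own fold changes were not used. In the combined table, 1 column of per-sample values (HFD-EV) was not used, since it holds a product of another group's log2 signal and a fold change.

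Control spots and outlier spots (3.80% to 4.51% of 56430 miRNA spots on an array) were left out, spots of a probe were averaged, and probes of a miRNA were summed. Signals were divided by the 75th percentile over the 443 miRNAs measured in every group (527.7 for HFD-LKO EV, 614.1 for Chow-LKO EV, 561.0 for HFD-EV and 507.9 for Chow-EV). A miRNA counted as above background when Feature Extraction marked the majority of spots of any of its probes as well above it. Where this held on 1 array of a comparison, a bound was computed against the lowest signal above background on the other array or the miRNA's own signal, whichever was higher. Where the own signal was higher, the bound is a ratio with a signal below background and not a strict limit. The number of spots and arrays limits the precision, and no test was made.

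The miRNAs named are the 3 members, those with their seed, the let-7 miRNAs and other arms of their loci, the 5 nearest in pattern, and some that define the lists of cell type markers. Members and lists were chosen with earlier results of these data known. Of the 1881 miRNAs, 1608 were matched by name to RefSeq (GRCm38.p6). The averaging of spots, summing of probes and log2 ratios were tested on simulated data. There the arrays were scaled over miRNAs set as unchanged, and the background call was not tested. Alternatives changed the scaling, background correction (limma normexp, offset 50), summary of spots and probes, outlier filter and source of values. Python 3.11.15, numpy 2.4.6, pandas 2.3.3, matplotlib 3.10.9, R 4.3.3 and limma 3.58.1 were used.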

Additional observations from a re-analysis of the deposited data

How the results depend on the processing

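Of 15 values (12 member ratios and 3 differences of genotype ratios), those not listed here moved by less than their spot spread, and none of the ratios larger than 2 spot SDs changed sign. Values are given as miR-99a, miR-100 and miR-125b where all 3 moved. Without scaling, the genotype ratios on chow were -0.69, -0.58 and -0.38, their differences (HFD minus chow) -0.32, -0.45 and -0.25, miR-99a was at -1.01 (genotype, HFD), -0.20 (diet, LKO) and 0.12 (diet, WT), and miR-125b at -0.64, -0.44 and -0.18. With the 75th percentile over all miRNAs, miR-99a was at -0.82 (genotype, HFD), -0.81 (genotype, chow), -0.13 (diet, LKO) and -0.12 (diet, WT), and miR-125b at -0.45, -0.50, -0.37 and -0.42. With the labelling spike-ins the genotype ratios on chow were -0.32, -0.21 and -0.0065, the diet ratios in LKO -0.60, -0.68 and -0.84, and the differences -0.54, -0.67 and -0.48. With miR-122-5p, miR-99a and miR-125b were at -0.80 and -0.49 (genotype, chow), -0.14 and -0.38 (diet, LKO) and -0.12 and -0.056 (difference). Quantile normalisation gave -0.85 for miR-99a (genotype, chow). With normexp, miR-99a was at -0.67 under HFD and -0.74 on chow and miR-100 at -0.29 and -0.43 (genotype). In the authors' log2 values the genotype ratios were -0.74 under HFD and -0.76 on chow for miR-99a, -0.29 and -0.34 for miR-100, and -0.50 on chow for miR-125b. With the total gene signal, miR-99a was at -1.09 and miR-125b at -0.78 (genotype, chow), and miR-100 at -0.22 and -0.43 (genotype, HFD and chow), 0.83 and 0.62 (diet, LKO and WT) and 0.21 (difference). The scaling alternatives other than quantile normalisation shift all miRNAs of a comparison by 1 amount, and the offset of normexp shrinks ratios of dim miRNAs by construction; the cause of the other changes was not tested. The spike-in and miR-122-5p scalings were chosen after seeing the data.

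The numbers of miRNAs at least 2-fold higher and lower were 41 and 39 for HFD-LKO EV over HFD-EV, 15 and 28 for Chow-LKO EV over Chow-EV, 22 and 8 for HFD-LKO EV over Chow-LKO EV, and 14 and 9 for HFD-EV over Chow-EV. Without scaling they were 35 and 47, 37 and 8, 10 and 23, and 32 and 5. With normexp they were 10 and 5, 2 and 3, 1 and 1, and 2 and 2. At 1.5-fold they were 83 and 105, 61 and 87, 93 and 41, and 82 and 69. Leaving out a replicate was not possible with 1 array in each group, and the slide was not used as a block because all arrays lay on 1 slide. No paired analysis was possible because each group holds 1 array and no result comes from a test. miR-100 was limited by signal, with a summed signal of 36.8 in HFD-LKO EV against a lowest signal above background of 13.8 there.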
